A study of Mus musculus with 9 samples.

Results

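The complement proteases and complement regulators described here are 6 genes: the protease C1s1, the protease inhibitor Serping1, the components C3, Cfb and C4b, and the membrane regulator Cd55. Members were taken as every probe set annotated to 1 of these genes, whatever its signal. Of the 6 genes, 5 had a probe set in the annotation used, with 8 probe sets in all out of 45101 on the array. C1s1, Serping1 and Cfb had 1 probe set each and Cd55 had 3 of its own. C4b had only a probe set annotated to both C4a and C4b, which is called the C4a/C4b probe set here, and Cd55 shared a further probe set with Cd55b. C3 was not analysed here. Tests were limited to probe sets with at least 3 arrays at a signal of 200 or more, which held for 3 of the 8 and for 18913 of the whole array.

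The tissue was Reissner's membrane of adult mice, the thin sheet of epithelial and mesothelial cells that parts the endolymph of the cochlear duct from the perilymph. The dexamethasone group was membrane explanted for 24 h with the synthetic glucocorticoid dexamethasone at 100 nM. The incubated group was explanted for 24 h without it, and the fresh group went straight to RNA extraction. The unit of the dose is typed as mM on dexamethasone arrays B and C, and as nM on array A and in the series' design. Each group had 3 arrays, lettered A to C, hybridised from membranes that were dissected by hand and pooled, so that p-values cover chip-to-chip spread, which may be technical, and not the spread between animals.

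Complement is a cascade of plasma and tissue proteins that marks surfaces for removal and recruits leukocytes. In the classical pathway C1q binds a target and activates the proteases C1r and C1s. C1s cleaves C4 and C2 into the parts of a convertase that cleaves C3, and factor B (Cfb) takes the place of C2 in the alternative pathway. The C1 inhibitor Serping1 binds activated C1r and C1s and the lectin pathway proteases, and Cd55 speeds the decay of the convertases on host cells. Liver is the main source of the plasma proteins, while many other tissues and macrophages also make complement components locally. Glucocorticoids act on transcription through the glucocorticoid receptor.

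C1s1 lies on chromosome 6 (chr6:124530344-124542392, GRCm38.p6) beside C1ra, which encodes the other protease of the C1 complex (chr6:124512621-124523440). The 2 genes are 6903 bases apart with no protein-coding gene between them. Their promoter windows, the 250 bases before an annotated start, are shown because both genes fell with dexamethasone, and that of C1qb because it rose. The windows are RefSeq sequences of build GRCm38.p6, written along the strand of the gene: chr6:124542360-124542609 on the minus strand for the upstream of 2 annotated C1s1 starts, chr6:124512371-124512620 on the plus strand for C1ra, and chr4:136886201-136886450 on the minus strand for C1qb. Capitals mark matches to the motifs searched.
C1s1: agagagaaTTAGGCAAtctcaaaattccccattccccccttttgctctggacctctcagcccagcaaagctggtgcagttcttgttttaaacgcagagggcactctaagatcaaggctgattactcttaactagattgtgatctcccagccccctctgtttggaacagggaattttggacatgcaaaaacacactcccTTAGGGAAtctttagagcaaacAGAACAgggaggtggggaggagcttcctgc
C1ra: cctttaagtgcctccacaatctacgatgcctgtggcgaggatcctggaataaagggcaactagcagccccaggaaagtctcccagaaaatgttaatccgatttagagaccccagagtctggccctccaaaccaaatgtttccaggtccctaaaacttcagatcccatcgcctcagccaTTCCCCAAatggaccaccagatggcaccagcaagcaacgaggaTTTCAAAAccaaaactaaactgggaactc
C1qb: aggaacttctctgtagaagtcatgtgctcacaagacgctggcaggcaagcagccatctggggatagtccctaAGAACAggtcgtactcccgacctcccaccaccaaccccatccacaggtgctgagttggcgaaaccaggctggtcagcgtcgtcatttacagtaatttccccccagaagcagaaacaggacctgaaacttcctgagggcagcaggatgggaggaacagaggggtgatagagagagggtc

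The motifs were searched on both strands. They were AGAACA, which is 1 arm of a glucocorticoid receptor site, its inverted pair, the C/EBP site TTNNGNAA, the STAT site TTCNNNGAA, the interferon response core GAAANNGAA, the AP-1 site TGANTCA and the NF-kB site. The C1s1 window holds an AGAACA at bases -30 to -25 before the start, and C/EBP matches at -242 to -235 and at -52 to -45. C1ra holds 2 C/EBP matches on the opposite strand, at -72 to -65 and -29 to -22, and C1qb holds an AGAACA at -178 to -173. These are short patterns: of 32851 windows of the same length, 16.1% hold AGAACA and 36.8% the C/EBP pattern. The inverted pair stands in 0.00913% of windows and in none of the 3 shown, and the patterns do not overlap one another there. A window was also given for C3, Cd55, C1qc and Cfp, and not for Serping1, Cfb, C4b, C2, C1qa, Masp1 or Colec12. That of Cfp, which rose with dexamethasone, held no match, and that of Cd55 held none. The window of C1qc, which was not called with dexamethasone, held AGAACA, C/EBP and NF-kB matches. The C3 window held C/EBP matches only. A match describes letters and not binding.

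Array signals were on a linear scale, set by the authors to a target of 500 on every array. The share of probe sets at 200 or more was 37.4% to 37.7% in dexamethasone arrays, 36.0% to 36.4% in incubated arrays and 39.4% in fresh arrays. The ratio of 3' to 5' Gapdh probe sets, a sign of RNA length and labelling, was 5.02 to 5.47 in dexamethasone, 3.46 to 3.88 in incubated and 6.91 to 7.53 in fresh arrays. All 10 epithelial markers were bright enough to be tested, with summed signals of 98891 to 104028 in dexamethasone, 84255 to 88135 in incubated and 41160 to 42997 in fresh arrays. With dexamethasone 8 were called higher and Epcam lower, and on incubation 8 were called higher and Scnn1a lower, while Esrp1 was not called in either. Over all tested probe sets 27.1% were called higher and 25.5% lower with dexamethasone, and 35% and 40.1% on incubation. Apart from Scnn1a at 1.52, the called epithelial rises with dexamethasone were log2 changes of 0.21 to 0.35 on the deposited scale. With arrays scaled to the hybridization controls, the median change of all tested probe sets with dexamethasone moved from 0.007 to -0.45. The marker counts were not repeated under that scaling. Of 6 mesothelial markers only Msln and Gpm6a were bright enough to be tested. Fresh arrays also carried markers of other cochlear and blood cells. Summed signals of 8 cochlear fibrocyte markers were 4223 to 4437 in dexamethasone, 4916 to 5236 in incubated and 72256 to 73828 in fresh arrays. Those of 7 neutrophil markers were 170.2 to 357.7 in dexamethasone, 3180 to 3286 in incubated and 17438 to 17735 in fresh arrays. Arrays of whole tissue cannot tell fewer cells of a type from less RNA per cell.

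The first question was what dexamethasone did to these genes in explants. C1s1 fell, Serping1 rose, and the C4a/C4b probe set was not called. By limma on log2(signal + 32), called at a Benjamini-Hochberg adjusted p under 0.05 over all tested probe sets, 1 of 3 tested members rose and 1 fell. Over the whole array 27.1% of probe sets were called higher and 25.5% lower with dexamethasone, and with 3 members these counts cannot be told from the array's own rate.

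C1s1 encodes the protease that cleaves C4 and C2. Its signals were 398.2, 408.7 and 425.2 in dexamethasone arrays, against 1000.3, 1056.0 and 1056.7 in incubated arrays. The dexamethasone arrays lay in a narrow band far below all incubated arrays. The mean was 411 ± 14 with dexamethasone and 1038 ± 32 in incubated arrays (SD, n = 3 each), a log2 change of -1.27 ± 0.07 (SE, limma adjusted p = 3.09e-08), or 2.42-fold lower on the log2(signal + 32) scale. The 95% interval was -1.42 to -1.13, while the median change over all tested probe sets was 0.007. The C1s1 probe set is of the kind named _s_at, which may also pick up related transcripts. C1s2, a close copy lying 82232 bases away on the same chromosome, was not analysed here, and its part in the signal was not tested.

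Serping1 (chr2:84765360-84775444) encodes the inhibitor of C1r and C1s. Its signals were 3953.3, 3982.8 and 4008.6 in dexamethasone arrays, against 3269.6, 3154.5 and 2989.9 in incubated arrays, with no overlap. The change was small, at a log2 of 0.34 (95% interval 0.22 to 0.47, limma adjusted p = 3.19e-04), or 1.27-fold higher. Its direction rests on the scale: with arrays scaled to the hybridization controls, the Serping1 log2 change was -0.15 (adjusted p = 0.0747). That scaling moved the median of all tested probe sets to -0.45. Relative to the median, Serping1 was higher by 0.31 under it and by 0.33 under the deposited scale. Scaling by 1 factor per array moves all probe sets nearly alike, so these values are not separate support for a rise. C1s1 stayed lower under every scaling, with log2 changes of -1.26 to -1.74.

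C4b encodes the component that C1s cleaves, and C4a (annotated as a transcribed pseudogene in this build) is its close copy in the same region of chromosome 17 (C4b at chr17:34728139-34743902). Signals of the C4a/C4b probe set were 463.8, 486.1 and 517.6 in dexamethasone arrays, against 451.0, 407.0 and 397.3 in incubated arrays. The groups did not overlap, but the lowest dexamethasone array and the highest incubated array lay close together. The log2 change of 0.21 (95% interval 0.01 to 0.41) had a limma adjusted p of 0.069 and was not called. It was -0.25 with hybridization-control scaling, where the adjusted p was 0.0538.

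**Figure D1:**
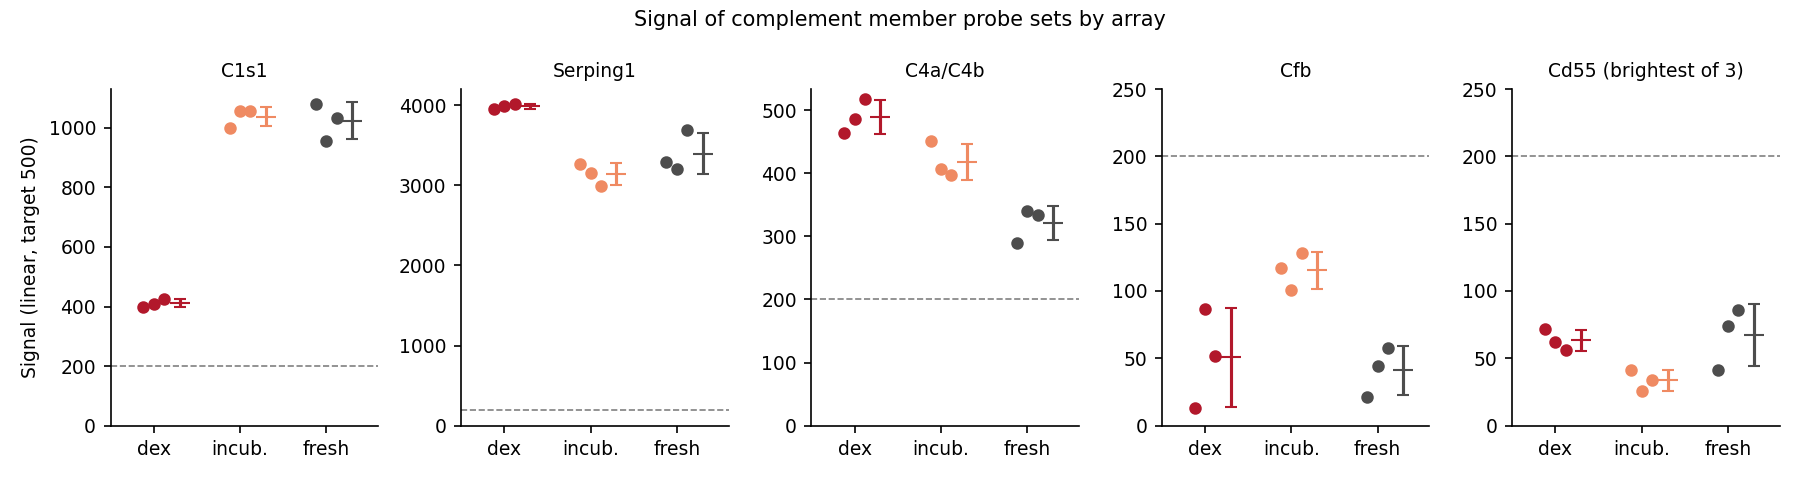
Linear signal (target 500) of 1 probe set for each measured member on each array, with dexamethasone (dex), incubated and fresh arrays from left to right. Dots are arrays, bars beside them the mean and SD (n = 3), and the dashed line a signal of 200. C1s1 stands near 400 with dexamethasone and near 1000 in the other arrays, Serping1 is highest with dexamethasone, the C4a/C4b probe set is lowest in fresh arrays, and Cfb and Cd55 stay under the line. These levels are on the deposited scale, and with hybridization-control scaling Serping1 was lower with dexamethasone than in incubated arrays.

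Cfb and Cd55 stayed under a signal of 200 on every array and were not tested, so no fold is given. Cfb (chr17:34856374-34862514) encodes the protease of the alternative pathway convertase. Its signals were 13.3, 86.6 and 52.0 in dexamethasone arrays, 117.3, 100.7 and 128.3 in incubated arrays and 21.5, 44.2 and 57.6 in fresh arrays. The 3 incubated arrays were the 3 highest, in a range where signals vary most between arrays. With no filter on low signals, the limma adjusted p was 0.0189 for incubated against fresh, 0.0505 for dexamethasone against incubated and 0.839 for dexamethasone against fresh. Cd55 (chr1:130429798-130465009) encodes the decay accelerating factor of cell surfaces. Its brightest probe set had signals of 71.9, 62.0 and 56.0 in dexamethasone arrays, 41.2, 25.8 and 34.0 in incubated arrays and 41.3, 73.9 and 85.9 in fresh arrays. Dexamethasone and fresh arrays overlapped, and the incubated arrays were the lowest, just under the lowest fresh array. The other Cd55 probe sets, the one shared with Cd55b included, ranged below 100 on every array. With no filter, 1 of them was called lower in incubated than in fresh arrays (adjusted p = 0.0308), and none was called with dexamethasone.

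The second question was what 24 h of explant culture did. C1s1 and Serping1 were not called, and the C4a/C4b probe set rose. Incubated C1s1 signals, given above, overlapped those of fresh arrays, which were 1080.2, 956.9 and 1034.3. The log2 change was 0.02 (95% interval -0.13 to 0.17, limma adjusted p = 0.798), so that changes within that interval cannot be seen at this precision. Serping1 signals of incubated arrays also overlapped the 3286.1, 3207.9 and 3683.5 of fresh arrays, with a log2 change of -0.11 (-0.23 to 0.01, adjusted p = 0.0992).

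The C4a/C4b probe set had signals of 451.0, 407.0 and 397.3 in incubated arrays, against 290.2, 339.6 and 333.7 in fresh arrays. All incubated arrays exceeded all fresh arrays, and the log2 change was 0.35 (0.15 to 0.55, limma adjusted p = 0.00358), or 1.28-fold. Thus 1 of 3 tested members rose and 0 fell by limma (0 also at an unadjusted p under 0.05), where 35% of all tested probe sets were called higher and 40.1% lower on incubation. With 3 members neither count can be told from the array's rate.

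The calls on incubation depend on the scale, as some of those with dexamethasone do. The median change of all tested probe sets was -0.05 on the deposited scale, 0.28 with each array centred on its median and 0.27 with hybridization-control scaling. Under both, C1s1 and Serping1 were called higher in incubated than in fresh arrays, C1s1 with log2 changes of 0.35 and 0.35 and Serping1 with 0.22 and 0.23. Quantile normalization called Serping1 lower instead (-0.199, limma adjusted p = 0.0068), so no direction is given for Serping1 on incubation. Relative to the median of all tested probe sets, C1s1 stood at 0.07 with median centring and 0.08 with hybridization-control scaling. Serping1 stood at -0.06 and -0.05 in the same order. Both settings shift all probe sets of an array nearly alike, so these distances could hardly change. The C4a/C4b probe set was higher in incubated arrays under every scaling, with log2 changes of 0.35 to 0.68.

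**Figure D2:**
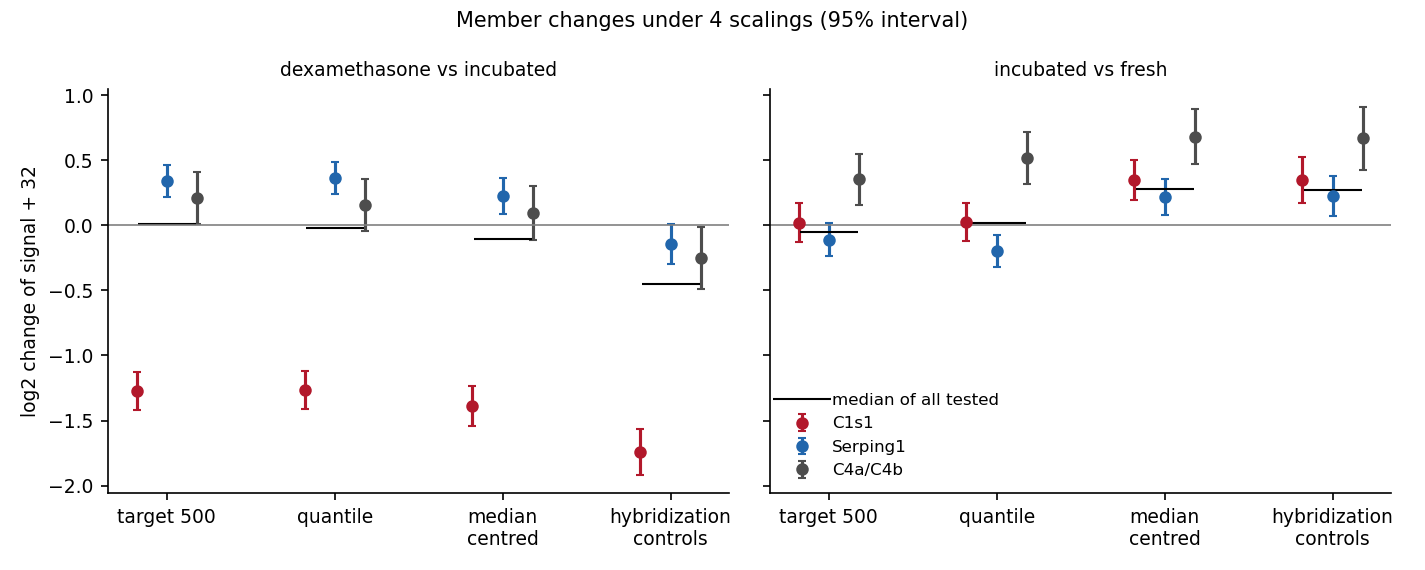
Log2 change of signal + 32 for C1s1, Serping1 and the C4a/C4b probe set, dexamethasone against incubated (left) and incubated against fresh (right), under 4 ways of scaling the arrays. Points are limma estimates with 95% intervals, and black dashes are the median change of all tested probe sets. C1s1 lies far below the median with dexamethasone in each scaling, while Serping1 lies above it in each but below 0 with hybridization controls. Median centring and hybridization-control scaling shift whole arrays, so distances to the median could hardly change under them.

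Dexamethasone explants were also set against fresh tissue, which shares arrays with both comparisons above. C1s1 was lower, with a log2 change of -1.25 (-1.40 to -1.11, limma adjusted p = 3.01e-09). Serping1 was higher by 0.23 (adjusted p = 0.00252) and the C4a/C4b probe set by 0.56 (adjusted p = 9.41e-05). No dexamethasone array overlapped a fresh array for any of the 3. Here 2 of 3 tested members were called higher and 1 lower, against 37.8% and 38.4% of all tested probe sets. With hybridization-control scaling the Serping1 difference was 0.08 (adjusted p = 0.328) and was not called. In order of level, C1s1 was lowest with dexamethasone, and incubated and fresh arrays did not differ beyond their spread. Serping1 was highest with dexamethasone on the deposited scale, again with incubated and fresh arrays overlapping. The C4a/C4b probe set was lowest in fresh arrays, and its dexamethasone and incubated levels did not differ at the threshold.

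The other complement genes were taken from 4 lists of 52 genes, of which 43 had a probe set and 16 were tested. With dexamethasone 7 were called higher, 2 lower and 7 were not called, with a median log2 change of 0.19. Over all tested probe sets 27.1% were higher and 25.5% lower, with a median of 0.007. The balance turned with the scale, since hybridization-control scaling gave 3 higher and 9 lower. On incubation 6 were called higher, 8 lower and 2 were not called, with a median of -0.13 beside -0.05 over all tested probe sets, of which 35% were higher and 40.1% lower. For dexamethasone against fresh tissue the counts were 9 higher, 6 lower and 1 not called, with a median of 0.30 beside -0.005 and shares of 37.8% and 38.4%.

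The genes of the first steps of the classical pathway moved in different directions with dexamethasone. C1ra encodes C1r, which activates C1s. Its signals were 298.9, 308.9 and 321.2 in dexamethasone arrays, against 601.7, 606.3 and 611.7 in incubated arrays. C1ra thus fell without overlap, with a log2 change of -0.90 (-1.07 to -0.74, adjusted p = 1.41e-06). On incubation C1ra fell as well, against fresh signals of 1162.8, 1139.3 and 1339.7, with a log2 change of -0.96 (adjusted p = 1.34e-07). The difference between the 2 genes' changes on incubation was not tested.

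C2 encodes the other substrate of C1s and lies 87 bases from Cfb on chromosome 17 (C2 at chr17:34862602-34882100). Its signals were 775.0, 884.2 and 791.4 in dexamethasone arrays, against 1272.7, 1409.2 and 1275.3 in incubated arrays. They did not overlap, and C2 fell with dexamethasone by 0.67 on the log2 scale (adjusted p = 1.84e-05). It was also called lower on incubation (log2 change -0.29, adjusted p = 0.00494), but this change was 0.04 with median centring and 0.05 with hybridization-control scaling, neither called. C1ra and C2 were the only 2 of the 16 tested genes called lower with dexamethasone on the deposited scale.

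The C1q chains, which form the recognition part of C1 and are known as products of macrophages, differed among themselves with dexamethasone. C1qb signals were 1357.7, 1378.3 and 1158.6 in dexamethasone arrays, against 646.6, 679.3 and 664.6 in incubated arrays, all higher with dexamethasone. The log2 change was 0.93 (0.77 to 1.10, adjusted p = 1.02e-06). C1qa rose by 0.61 (adjusted p = 5.09e-04), with means of 567 in dexamethasone and 361 in incubated arrays, but was not called with hybridization-control scaling (0.147, adjusted p = 0.24). C1qc, the third chain, was not called, with means of 499 and 507 in the same order and an interval of -0.20 to 0.15, while hybridization-control scaling called it lower (-0.485, adjusted p = 2.86e-04). On incubation C1qb and C1qc were called higher, by 0.52 and 0.25, and C1qa was not (0.19, adjusted p = 0.122), though the other scalings called it higher, by 0.378 to 0.521. A second C1qb probe set gave 0.01 on incubation and was not called.

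The macrophage markers, a list that includes the 3 C1q chains, moved both ways with dexamethasone and mostly up on incubation. With dexamethasone 3 of 8 tested markers were called higher, C1qb, Csf1r and C1qa, and 2 lower, Adgre1 and Lyz2. Over all tested probe sets the shares were 27.1% and 25.5%, and with 8 markers these counts cannot be told from them. On incubation 6 of the 8 were called higher and 1, Csf1r, lower, beside 35% and 40.1% of all tested probe sets. Beside the C1q chains, Cd68 averaged 1647 in incubated and 130.0 in fresh arrays, Adgre1 551 in incubated and 194 in fresh arrays, and Cd14 757 in incubated and 387 in fresh arrays. Csf1r went the other way, with means of 1365 in incubated and 2986 in fresh arrays. Of the markers too dim to test, Mrc1 averaged 23.4 in incubated and 200.6 in fresh arrays. In the same order Cd163 averaged 21.7 and 73.9, Aif1 116 and 31.0, and Fcgr1 68.9 and 62.4. The summed marker signal was 8664 to 8799 in dexamethasone, 7745 to 8265 in incubated and 6805 to 7081 in fresh arrays. The part of macrophage number in the C1q values was not tested.

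Masp1, a protease of the lectin pathway and a target of Serping1, was higher with dexamethasone and on incubation. Its signals were 815.4, 716.1 and 783.8 in dexamethasone arrays, 604.7, 570.5 and 536.6 in incubated arrays and 290.4, 303.4 and 319.4 in fresh arrays. No group overlapped another, and the log2 changes were 0.42 with dexamethasone (adjusted p = 9.76e-04) and 0.84 on incubation (adjusted p = 8.42e-07). With hybridization-control scaling the Masp1 change with dexamethasone was -0.05 and was not called. The collectin Colec12, a scavenger receptor, fell on incubation by 0.86 and rose with dexamethasone by 1.12 on the log2 scale (adjusted p = 1.32e-05 and 5.35e-06). Its means were 994 in dexamethasone, 445 in incubated and 828 in fresh arrays. The other 7 matched genes of the classical and lectin list, among them Masp2, Mbl1, Mbl2 and Fcna, were not tested because of low signal.

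**Figure D3:**
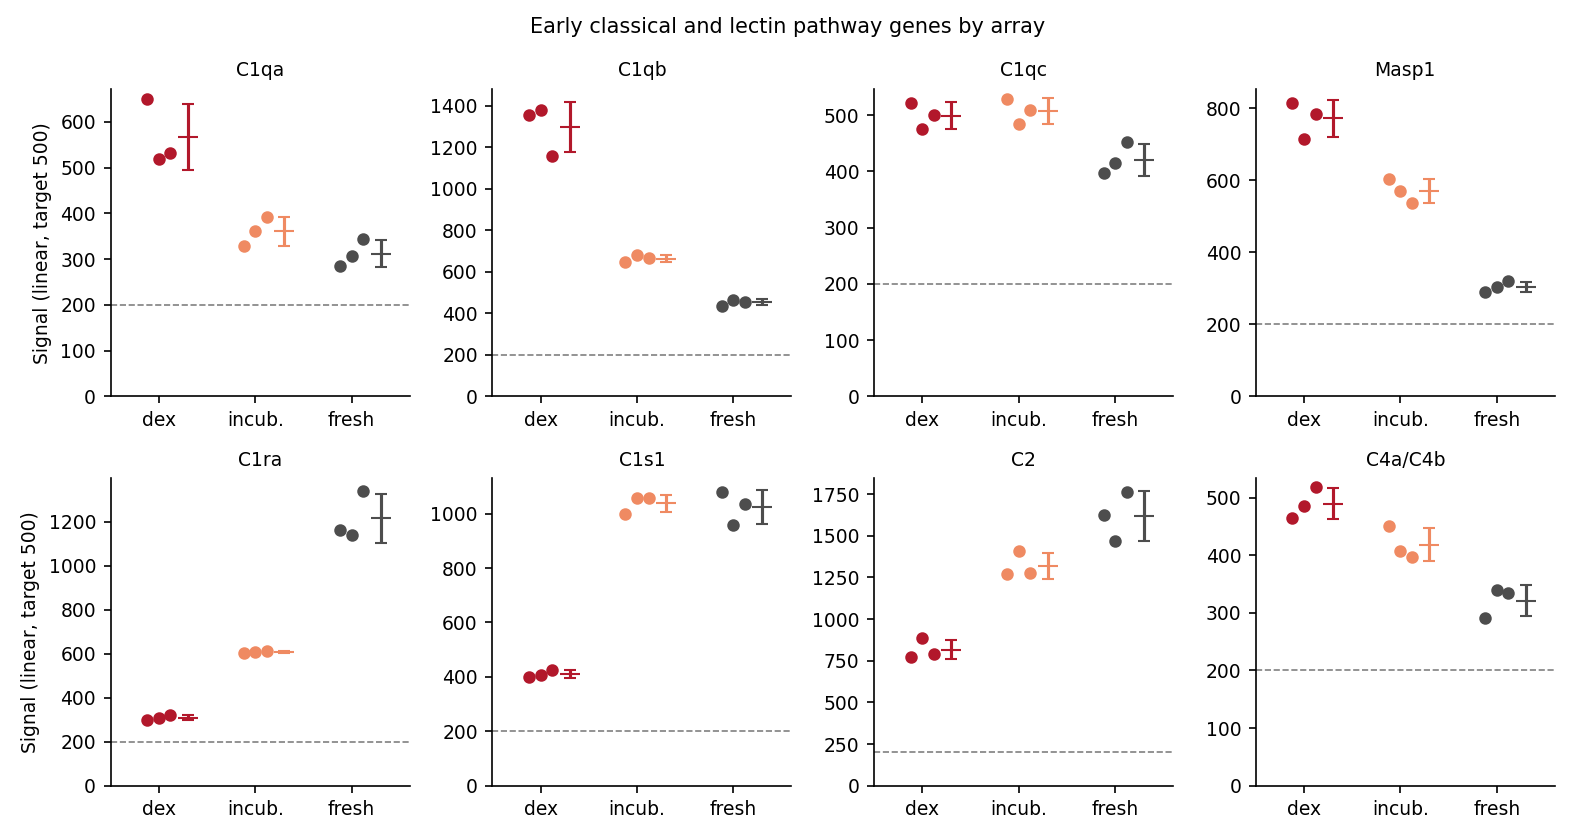
Linear signal (target 500) of genes of the first steps of the classical and lectin pathways on each array, with dexamethasone (dex), incubated and fresh arrays from left to right, dots for arrays, and bars for the mean and SD (n = 3). C1ra, C1s1 and C2 are lowest with dexamethasone, and C1qa, C1qb and Masp1 are highest with it on the deposited scale (Masp1 not so against incubated arrays with hybridization-control scaling). The dashed line marks a signal of 200.

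In the alternative pathway and terminal list, 1 of 7 matched genes was tested. This was Cfp, which encodes properdin, the stabiliser of the alternative convertase. Its signals were 676.9, 675.2 and 680.7 in dexamethasone arrays, 271.7, 248.6 and 257.2 in incubated arrays and 535.5, 471.8 and 562.5 in fresh arrays. Cfp fell on incubation by 0.93 on the log2 scale (adjusted p = 4.29e-07) and rose with dexamethasone by 1.29 (1.10 to 1.47, adjusted p = 1.57e-07), and it was the largest rise with dexamethasone among the 16 tested genes, each by its brightest probe set. The terminal components Hc, C6, C8a, C8b, C8g and C9 averaged under 200 in every group.

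Of 13 matched regulators, 5 were tested. Clusterin (Clu), a secreted inhibitor of the terminal complex, had means of 24818 in dexamethasone, 21186 in incubated and 30409 in fresh arrays. It fell on incubation (log2 change -0.52, adjusted p = 9.77e-06) and was called higher with dexamethasone at 0.23 (adjusted p = 0.0108). The call with dexamethasone held under no other scaling: Clu was at 0.051 with quantile normalization (adjusted p = 0.231), 0.113 with median centring (adjusted p = 0.169) and -0.262 with hybridization controls (adjusted p = 0.011, lower). The fall on incubation was not called with hybridization controls (-0.185, adjusted p = 0.0631). Vitronectin (Vtn) signals were at most 52.1 in all dexamethasone and incubated arrays and averaged 243 in fresh arrays, at least 1.22-fold lower on incubation. Vtn passed the signal filter only through fresh arrays. This favoured its calls as lower, which are in the counts above, so no p-value is given. The membrane inhibitor of the terminal complex Cd59a had means of 733 in dexamethasone, 814 in incubated and 1436 in fresh arrays. It fell on incubation by 0.80 (adjusted p = 5.26e-07), while a second, dimmer Cd59a probe set changed by -0.01 and was not called.

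Susd4, which encodes a membrane regulator, was called lower on incubation (-0.41, adjusted p = 0.00231), but not with median centring (-0.081, adjusted p = 0.477) or hybridization controls (-0.09, adjusted p = 0.429). With dexamethasone Susd4 was not called on its brightest probe set (-0.17, adjusted p = 0.166), while a second one was lower (-0.387, adjusted p = 0.0129), as was the mean over its probe sets (-0.279, adjusted p = 0.00491). The first probe set was also called lower with median centring (-0.287), with hybridization controls (-0.63) and without dexamethasone array A (-0.27). Cr1l, the rodent membrane regulator of C3 and C4 convertases also called Crry, was called higher on incubation (0.24, adjusted p = 0.00621). Its probe sets disagreed, so no direction is given for the gene. A second, dimmer one averaged 250 in dexamethasone, 50.3 in incubated and 156 in fresh arrays. Its incubated and fresh arrays all lay under 200, so its lower values on incubation carry little information. It passed the signal filter only through dexamethasone arrays, which favoured its rise with dexamethasone, of at least 1.25-fold. Cfi and Cd46, a soluble protease and its membrane cofactor, were not tested. Cfi averaged signals of 135 in dexamethasone, 134 in incubated and 140 in fresh arrays, and Cd46 of 70.3, 71.9 and 82.4 in the same order.

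Of 9 matched receptors, 3 were tested. The receptor for the C3a fragment, C3ar1, had signals of 204.2, 214.8 and 227.6 in dexamethasone arrays, 176.3, 145.0 and 185.0 in incubated arrays and 90.3, 82.1 and 106.1 in fresh arrays. No group overlapped another, but incubated and fresh arrays all lay under 200. C3ar1 with dexamethasone was at least 1.08-fold higher than in fresh arrays. It passed the signal filter only through dexamethasone arrays, which favoured that call, so no p-value is given. C3ar1 was not called against incubated arrays (adjusted p = 0.0639), where hybridization-control scaling gave a log2 change of -0.115. Itgb2, the common chain of the complement receptors CR3 and CR4, was higher with dexamethasone by 0.49 (adjusted p = 0.00446), with means of 414 in dexamethasone and 289 in incubated arrays. With hybridization-control scaling the Itgb2 change was 0.04 and was not called. C1qbp was called higher on incubation (0.45, adjusted p = 3.18e-05) and not with dexamethasone, and its probe sets differed in direction there. The C5a receptor C5ar1 averaged 40.6 in dexamethasone, 25.5 in incubated and 14.8 in fresh arrays and was not tested.

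**Figure D4:**
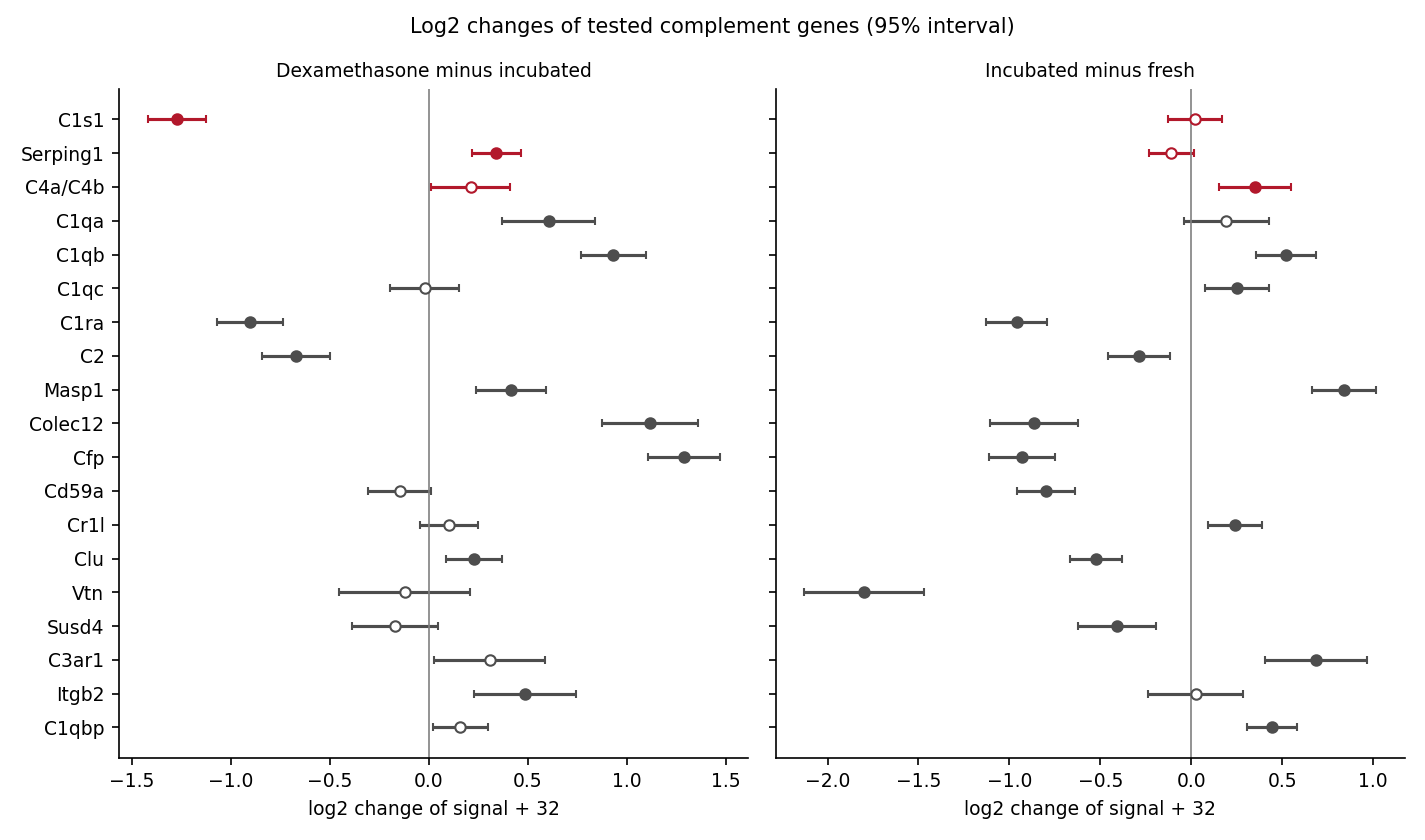
Log2 change of signal + 32 of the 3 tested members (red) and 16 other tested complement genes (grey), dexamethasone minus incubated (left) and incubated minus fresh (right). Points are limma estimates with 95% intervals, filled where the adjusted p is under 0.05. C1s1, C1ra and C2 lie left of 0 with dexamethasone under every scaling, while Cfp and C1qb lie right of it.

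Local production was set beside markers of the plasma source. Of 5 matched hepatocyte markers only Ttr was tested. Albumin (Alb) averaged signals of 19.4 in dexamethasone, 39.0 in incubated and 71.7 in fresh arrays, Fgb 2.9, 1.67 and 2.2, and Ahsg 7.63, 10.7 and 11.8 in the same order. Ttr fell on incubation and with dexamethasone. Summed signals of the 5 matched markers were 4013 to 4225 in dexamethasone, 4855 to 4948 in incubated and 23423 to 25632 in fresh arrays. With Alb, Fgb and Ahsg this low, the sums rest mostly on Ttr and cannot be read as a hepatocyte signal. Neutrophil markers fell beside C1s1 with dexamethasone, 6 of 7 of them being called lower, and S100a8 averaged 63.5 in dexamethasone and 1592 in incubated arrays. On incubation all 7 were called lower, where C1s1 was not called. Over all tested probe sets 25.5% were called lower with dexamethasone and 40.1% on incubation. Mpo, Elane and Csf3r passed the signal filter only through fresh arrays, which favoured their calls as lower on incubation. Fibroblast markers, whose cells are known to make C1r and C1s in other tissues, were mixed with dexamethasone. Of 7, 2 were called higher and 3 lower, beside 27.1% and 25.5% of all tested probe sets. Those higher were Lum and Dcn, and those lower Col3a1, Col1a2 and Thy1. The summed fibroblast marker signal was 13791 to 14871 in dexamethasone, 13055 to 15062 in incubated and 32718 to 34127 in fresh arrays. These sums rest largely on Dcn, with means of 9952.5 in dexamethasone, 7456 in incubated and 20348 in fresh arrays. They can hide the lower markers, such as Col3a1, with means of 378 in dexamethasone and 1915 in incubated arrays. The part of any of these cells in the member values was not tested.

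Receptors and factors known to act on complement genes were counted from a list of 32, of which 19 were tested. With dexamethasone 11 were called higher and 2 lower, with a median log2 change of 0.31, beside 27.1% and 25.5% of all tested probe sets and their median of 0.007. These counts are on the deposited scale and were not repeated under others. Hybridization-control scaling moved the median of all tested probe sets to -0.45, a shift larger than the list median of 0.31. Cebpd and Cebpb, transcription factors of the acute phase response, were higher by 1.17 and 0.85 (adjusted p = 4.69e-09 and 2.04e-07). Il6st, the signalling chain of the interleukin 6 family receptors, was higher by 0.67 on its brightest probe set, while a second gave -0.04. Il6ra averaged 300 in dexamethasone arrays and was under 200 in all incubated arrays, at least 1.5-fold higher. Outside the dexamethasone arrays only fresh array C, at 207.3, reached 200. Il6ra thus passed the signal filter largely through dexamethasone arrays, which favoured this call, included in the count above. Those called lower were the receptor chains Ifnar2 and Tnfrsf1a, at -0.47 and -0.28, though a second Ifnar2 probe set gave 0.05 and was not called.

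On incubation 14 of the 19 were called higher and 2 lower, with a median of 0.63, beside 35% and 40.1% of all tested probe sets and their median of -0.05. The oncostatin M receptor Osmr had means of 1655 in incubated and 225.6 in fresh arrays, a log2 change of 2.71 (adjusted p = 4.76e-12). The NF-kB family genes Relb and Nfkb2 were under 200 on all fresh arrays and at least 5.94-fold and 5.38-fold higher in incubated arrays. Cebpd was higher by 0.88. Those called lower were Il6ra, whose group means were both under 200, and Il6st, at -0.16, which was higher by 0.17 and 0.18 with median centring and hybridization-control scaling. Of 12 glucocorticoid receptor target genes, 11 were called higher and 1 lower with dexamethasone, and 1 higher and 7 lower on incubation. Over all tested probe sets the shares were 27.1% and 25.5% with dexamethasone, and 35% and 40.1% on incubation. Fkbp5 averaged 1389 in dexamethasone, 325 in incubated and 947 in fresh arrays.

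The genes most like each tested member were those with the highest Pearson r of log2 signal over the 9 arrays, among 10241 genes for C1s1 and Serping1 and 10242 for the C4a/C4b probe set. With 9 arrays in 3 groups, such values mostly follow the group means. For C1s1 these were Gstt3 (r = 0.9946), Zc4h2 (0.9941) and Urod (0.9936), each lower with dexamethasone and level between incubated and fresh arrays. For Serping1 they were Fxyd3 (0.9737), Taok1 (0.9695) and Gna11 (0.9682), with log2 changes of 0.30 to 0.41 with dexamethasone. For the C4a/C4b probe set they were Dennd2c (0.9901), Slc22a23 (0.9834) and Irak3 (0.9818), with changes of 0.49 to 0.68 on incubation.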

How the data were processed

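The 9 arrays fell into 3 groups of 3, with groups taken from the sample titles. Each array was deposited as 1 linear intensity value per probe set, scaled by the authors to a target signal of 500 over all probe sets, per the labels. RNA was extracted with an RNeasy Micro kit and labelled by repeated in vitro transcription for small samples, as the labels' protocols state. The software that summarised probes is not given in the sources used here. Genes were named from the platform annotation, in which 34945 probe sets have 1 symbol, 932 several and 9160 none. C3 and protein sequence features were not analysed here.

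Probe sets that reached 200 on at least 3 arrays, 18913 in all, were tested as log2(signal + 32) with limma 3.58.1 (R 4.3.3), 1 mean per group over all 9 arrays, eBayes with an intensity trend, and Benjamini-Hochberg adjustment over all tested probe sets. No detection calls were used. A gene was represented by its brightest tested probe set. A probe set tested through the group where it is high could hardly be called lower there. Where all 3 arrays of 1 group lay under 200, a change was given as at least the other mean over 200. The members and lists were chosen with earlier results of these data known. Named genes were the members, listed complement genes named in every case, and up to 4 called genes per list, comparison and direction with the smallest adjusted p. The other complement genes and the cell markers given with values were chosen after their values were seen. The model was first checked on simulated arrays. Scaling, filters, pseudocounts, the trend, probe set choice, the array letter as a block and single arrays left out were tried as alternatives. Python (3.11.15) with pandas (2.3.3) and matplotlib (3.10.9) made the summaries and plots.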

Additional observations from a re-analysis of the deposited data

How the results depend on the processing

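No probe-level data were used, so background and probe summary could not be varied, and signals under 200 carry little information. The arrays cannot show the spread between animals. The calls on C1s1 with dexamethasone held in all alternatives run. Members called higher on incubation numbered 3 with median centring and 3 with hybridization-control scaling, and 2 with no filter and 2 with a floor of 100. Those called lower on incubation were 1, Serping1, with quantile normalization. With dexamethasone against incubated, members called higher were 0 with hybridization-control scaling and 2 with no intensity trend, and those called lower were 2 with a floor of 100. The member added by a floor of 100 was Cfb, which reached 100 only on incubated arrays. That favoured its calls under this floor, as higher on incubation and lower with dexamethasone. Against fresh tissue, 1 member was higher with hybridization-control scaling. For the other complement genes, hybridization-control scaling gave 5 lower on incubation, and 3 higher and 9 lower with dexamethasone, where median centring gave 4 lower. With no filter 10 were lower in dexamethasone than in fresh arrays. Over all tested probe sets, the share of called ones that were higher with dexamethasone against incubated was 51.5% as deposited, 47.0% with quantile normalization, 33.3% with median centring and 9.13% with hybridization controls. On incubation it was 46.6%, 51.5%, 69.4% and 69.1% in the same order, and for dexamethasone against fresh 49.6%, 51.7%, 63.6% and 39.3%.

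Signs turned in these log2 changes. On incubation, Serping1 was 0.218 with median centring and 0.226 with hybridization controls, C2 0.041 and 0.045, and Il6st 0.169 and 0.177. With dexamethasone, hybridization controls gave Serping1 -0.146, the C4a/C4b probe set -0.248, Masp1 -0.054, Cr1l -0.380, Clu -0.262, C3ar1 -0.115, C1qbp -0.332, Timp2 -0.269 and Serpinf1 -0.288, and median centring gave Cr1l -0.013. Other probe sets turned the sign for Cr1l on incubation (-1.187, or -0.474 as the mean), for Il6st (0.213 and 0.027 on incubation, -0.041 with dexamethasone), and for Ifnar2 (0.052) and Timp2 (-0.003) with dexamethasone. The second Cr1l probe set was under 200 on all incubated and fresh arrays. Without _s_at and _x_at probe sets, Timp2 was -0.003 and C1qbp -0.126 with dexamethasone, and Spint2 was 0.071 on incubation, each also the value of the second probe set. Apart from the choice of scale or probe set itself, the cause was not tested. Leaving out 1 array at a time gave C1s1 on incubation -0.026 to 0.058, Itgb2 on incubation -0.045 to 0.151 and C1qc with dexamethasone -0.053 to 0.011, none of them called, and left every member count as given. With dexamethasone, C1s1 then ranged from -1.298 to -1.252 and Serping1 from 0.307 to 0.371.

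Array letters do not pair the samples: correlations of same-letter deviations ran from -0.062 to 0.164. With the letter as a replicate block, the members called with dexamethasone against incubated were again 1 higher and 1 lower, and the other complement genes 8 higher and 2 lower.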

Other observations

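Other secreted protease inhibitors were counted beside Serping1, from a list in which 14 genes were matched and all 14 were tested. On incubation 8 were called higher and 4 lower by limma, beside 35% and 40.1% of all tested probe sets. With dexamethasone 3 were called higher and 3 lower, beside 27.1% and 25.5%. Timp1, an inhibitor of metalloproteases, averaged 1677 in dexamethasone, 3132 in incubated and 90.6 in fresh arrays. It was at least 15.7-fold higher in incubated than in fresh arrays, and lower with dexamethasone by a log2 of -0.89 (adjusted p = 3.49e-05). Slpi, an inhibitor of neutrophil elastase, had means of 2262 in dexamethasone, 4069 in incubated and 173 in fresh arrays, with log2 changes of 4.33 on incubation and -0.84 with dexamethasone. Serpinb2 averaged 523 in incubated and 12.6 in fresh arrays, where it was under the floor, and was at least 2.61-fold higher on incubation. Spint1 was also higher on incubation, by 0.95.

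A2m, which encodes a broad inhibitor of proteases, was at least 14.4-fold lower in incubated than in fresh arrays, with means of 27.4 and 2885. A2m passed the signal filter only through fresh arrays, which favoured its call as lower, included in the count above. Serpinf1, Spint2 and Timp2 were lower on incubation by log2 changes of -1.30, -0.67 and -0.44, although a second Spint2 probe set did not show it. Timp2 was not called on incubation with median centring (-0.114, adjusted p = 0.0734) or hybridization controls (-0.105, adjusted p = 0.213). With dexamethasone Serpina3n was the inhibitor with the largest rise in the list, at 1.29 (adjusted p = 8.78e-07), with means of 1070 in dexamethasone and 419 in incubated arrays. Timp2 and Serpinf1 were called higher by 0.22 and 0.18 on the deposited scale and lower with hybridization-control scaling. With median centring neither was called (Timp2 0.105, adjusted p = 0.122, and Serpinf1 0.061, adjusted p = 0.456). Serpinf1 was also not called with quantile normalization (adjusted p = 0.0739), with only the 2 groups compared (adjusted p = 0.0635), or without any 1 of dexamethasone arrays A, B and C and incubated arrays A and B (adjusted p = 0.0566 to 0.0987). Serpinb1a had signals of 68.7, 75.6 and 67.9 in dexamethasone arrays, against 171.7, 283.8 and 209.8 in incubated arrays, and was at least 1.11-fold lower (adjusted p = 2.02e-05).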
